A study of Mus musculus with 24 samples.

Results

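Pmp22, Prx, Ncmap, Drp2, Gldn, Mbp, Mag and Mal are 8 genes whose proteins build or anchor the myelin of peripheral nerve. They were taken by symbol from the 47643 genes counted in plantaris muscle, a fast muscle of the mouse hindlimb that contains the nerve branches serving its fibres. The genes were selected on an earlier reading of these same counts, in which the log2 fold change of smoke against air and its p-value were already known, so that difference is given for them as a description, and the counts of those that passed a threshold support nothing. The mice were C57BL/6 of wild type genotype: 13 muscle samples came from a group exposed to tobacco smoke over 16 weeks and 11 from a group that breathed normal air, and no other genotype or treatment is named for either group. The labels give neither the sex nor the age of the animals. The Lexogen QuantSeq 3′ FWD kit used for the libraries reads transcripts near their 3′ ends, so a gene's level was compared between libraries and not with that of another gene.

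Myelin is the spirally wrapped membrane of a Schwann cell, the glial cell of peripheral nerve, and it insulates the axon so that impulses jump between gaps called nodes. Most of the sheath is compact myelin, in which membrane layers are held together by proteins such as PMP22 and myelin basic protein. Non-compact myelin, the surface facing the basal lamina and the membrane next to the axon carry other proteins, among them periaxin with DRP2 on the outside and MAG on the inside. In Schwann cells these genes are driven by the transcription factors SOX10 and EGR2, and TEAD factors of the Hippo pathway also act on peripheral myelin genes.

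The total count per library ran from 2515697 to 4528845. The expression filter left 10159 genes, and smoke and air differed in 195 of these (1.92%) with an adjusted p below 0.05 (edgeR quasi-likelihood test, Benjamini-Hochberg adjustment), 74 of them higher in smoke (0.728%) and 121 lower (1.19%). The labels give neither animals nor cages for the samples, so p-values measure only the spread between these libraries. Smoke libraries 2, 10 and 12 stood apart in the genes described here and were singled out after their values were seen. Their totals of 3206512, 3042477 and 3046672 counts lay inside the range of the others. The members' differences and correlations are given with and without them. In bulk muscle, more myelinating cells and more RNA per cell cannot be told apart.

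The promoters of 6 of the 8 genes were matched in RefSeq (GRCm38.p6), and 4 are shown because they belong to the genes that varied most in smoke and to Mag, which varied differently. RefSeq has 4 windows for Pmp22, 3 for Mag, 2 for Ncmap and 1 for Prx, and the one farthest upstream was taken for each gene. Each line gives the 250 bases before that RefSeq start, 5′ to 3′ on the gene's strand, and capitals mark a match on either strand to ACAAAG or ACAATG (SOX core), GTGGGNG (EGR core) or GGAATG (TEAD core). The windows are chr11:63128732-63128981 (plus strand) for Pmp22, chr7:27499074-27499323 (plus) for Prx, chr4:135398228-135398477 (minus) for Ncmap and chr7:30914923-30915172 (minus) for Mag, whose RefSeq start lies outside the GENCODE gene span given further on.
Pmp22: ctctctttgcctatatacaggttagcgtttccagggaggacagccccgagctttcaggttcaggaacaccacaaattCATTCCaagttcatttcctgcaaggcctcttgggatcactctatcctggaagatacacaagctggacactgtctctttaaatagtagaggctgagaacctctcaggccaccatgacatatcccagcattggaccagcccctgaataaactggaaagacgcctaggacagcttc
Prx: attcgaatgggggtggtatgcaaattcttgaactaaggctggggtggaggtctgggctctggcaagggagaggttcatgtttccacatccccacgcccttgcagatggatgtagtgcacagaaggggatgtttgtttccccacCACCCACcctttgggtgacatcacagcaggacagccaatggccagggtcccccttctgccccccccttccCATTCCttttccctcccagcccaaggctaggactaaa
Ncmap: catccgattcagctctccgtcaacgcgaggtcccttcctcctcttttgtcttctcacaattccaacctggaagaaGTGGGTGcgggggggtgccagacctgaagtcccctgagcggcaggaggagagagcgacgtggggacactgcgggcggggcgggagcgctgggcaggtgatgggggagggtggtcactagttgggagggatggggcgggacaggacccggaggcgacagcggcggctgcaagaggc
Mag: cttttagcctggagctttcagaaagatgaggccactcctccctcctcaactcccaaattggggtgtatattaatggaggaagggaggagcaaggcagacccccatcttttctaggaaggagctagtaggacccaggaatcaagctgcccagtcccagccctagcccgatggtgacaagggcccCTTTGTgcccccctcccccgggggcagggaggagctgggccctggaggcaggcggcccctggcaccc
The Prx window held 1 EGR and 1 TEAD match, the Pmp22 window 1 TEAD match, the Ncmap window 1 EGR match and the Mag window 1 SOX match. The 3 other Pmp22 windows and the other Ncmap window held 0 matches, while of the 2 other Mag windows 1 held the same SOX core and an EGR match and 1 a TEAD match. Over the 6 windows taken, 2 held the EGR core, 3 the TEAD core, 1 ACAAAG and 0 ACAATG. Among 32851 RefSeq windows of the same length, 28.1% held the EGR core, 12.6% the TEAD core, 16.5% ACAAAG and 10.7% ACAATG. These short cores occur by letter alone in many promoters, and a match is a description of the sequence.

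Pmp22, on chromosome 11 (63128982 to 63159547, plus strand, GRCm38), encodes a 4-span membrane protein of compact myelin whose duplication or loss causes inherited neuropathies in people. In air its level ran from 23.4 to 42.8 CPM (counts scaled to a common library total), with a median of 32.5. In smoke it ran from 27.8 to 142, with a median of 38.0. Smoke libraries 2, 10 and 12 held 142, 140 and 116 CPM, and 6 of 13 smoke libraries lay above the highest air library. The other 10 smoke libraries ran from 27.8 to 69.3 with a median of 36.4, so most of them overlapped with air. The log2 fold change was 0.88 (SE 0.24) over all libraries and 0.28 (SE 0.13) without the 3.

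Prx encodes periaxin, a scaffold protein at the outer, abaxonal membrane of the myelinating Schwann cell, and lies on chromosome 7 (27499324 to 27520214, plus strand). Its level ran from 2.01 to 6.46 CPM in air (median 3.13) and from 1.78 to 38.6 in smoke (median 5.94). In smoke libraries 2, 10 and 12 Prx was at 38.6, 18.3 and 23.5 CPM, while in the other 10 it stayed between 1.78 and 8.37. The log2 fold change was 1.48 (SE 0.39), and 0.49 (SE 0.23) without those 3. Drp2, on chromosome X (134404551 to 134456573, plus strand), encodes the dystrophin-related protein that binds periaxin and links it to dystroglycan at the basal lamina. It ran from 2.96 to 7.15 CPM in air (median 3.69) and from 2.75 to 36.4 in smoke (median 5.05). The 3 libraries held 36.4, 25.6 and 29.7 CPM, and smoke libraries 5, 13 and 6 followed at 13.1, 12.99 and 9.57. These 6 smoke libraries lay above the highest air library. Its log2 fold change was 1.42 (SE 0.38), and 0.52 (SE 0.26) without the 3. Prx and Drp2 were highest in smoke libraries 2, 12 and 10, the 3 libraries that were also highest for Pmp22, Ncmap and Gldn and for 1.03% of all genes tested among smoke libraries.

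Ncmap, on chromosome 4 (135369576 to 135398227, minus strand), encodes a small membrane protein of non-compact myelin. It ran from 0.695 to 4.84 CPM in air (median 2.66), where the lowest library held 2 reads, and from 1.38 to 35.7 in smoke (median 3.82). It reached 35.7, 21.97 and 13.9 CPM in smoke libraries 2, 10 and 12, and smoke library 6 followed at 10.9. The log2 fold change of 1.76 (SE 0.43) was the largest of the 8 genes, and it was 0.74 (SE 0.28) without the 3 libraries. Gldn, on chromosome 9 (54286486 to 54341786, plus strand), encodes gliomedin, which Schwann cell microvilli present to the axon to gather sodium channels at the node. It ran from 0.630 to 3.30 CPM in air (median 1.94) and from 1.85 to 11.2 in smoke (median 3.51). Gldn had 8 of 13 smoke libraries above the highest air library, 5 of them outside libraries 2, 10 and 12, which held 11.2, 7.69 and 7.42 CPM. Its log2 fold change was 1.14 (SE 0.28), and without the 3 libraries it no longer passed the expression filter. Ncmap and Gldn reached the filter's level of 2.84 CPM in 3 and 2 of 11 air libraries and in 11 and 10 of 13 smoke libraries, so both passed it mainly through smoke.

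**Figure D1:**
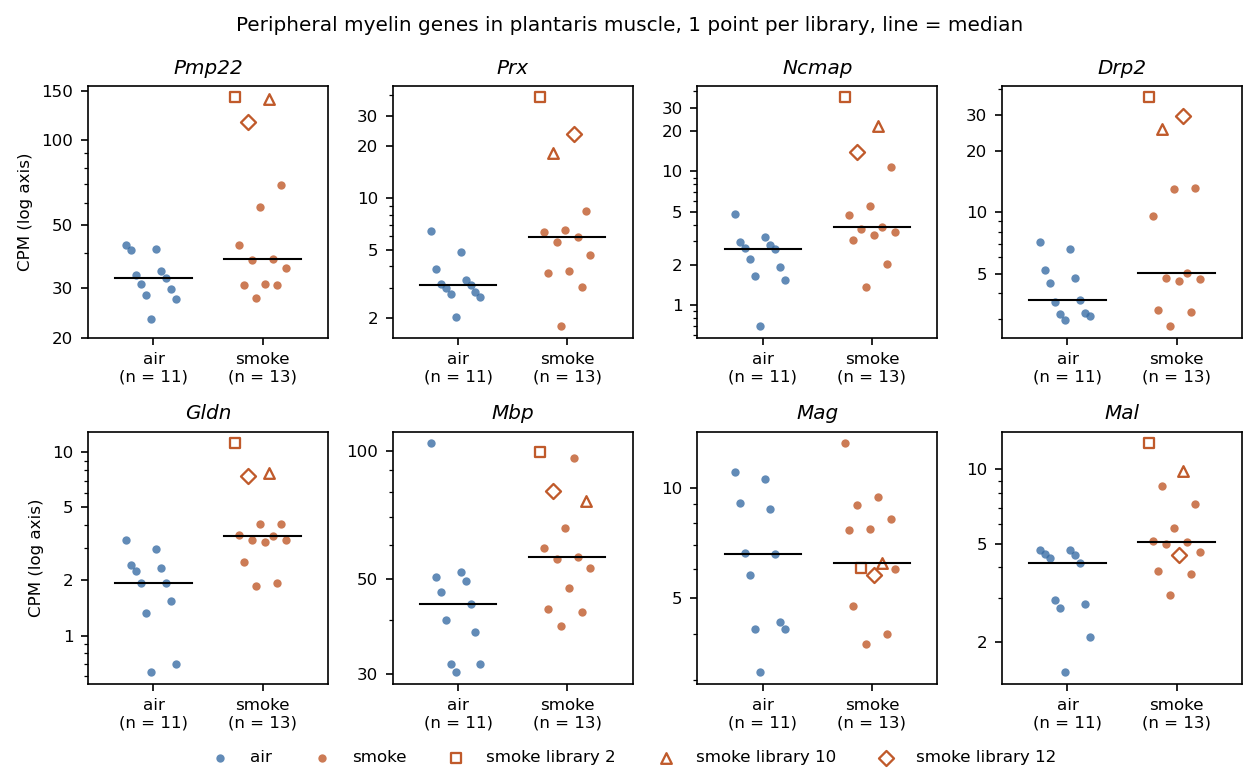
CPM of each gene in every library (log axis), 11 air and 13 smoke libraries, with lines at the group medians. Open symbols mark smoke libraries 2, 10 and 12, which lie above every other library for Pmp22, Prx, Ncmap, Drp2 and Gldn but in the middle of the range for Mag.

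Mbp, on chromosome 18, encodes myelin basic protein, which holds the cytoplasmic faces of compact myelin together. It ran from 30.2 to 104 CPM in air (median 43.6) and from 38.8 to 99.5 in smoke (median 56.4). The highest value of all 24 libraries was in air, so 0 of 13 smoke libraries lay above the air range. Mbp stood at 99.5, 76.2 and 80.3 CPM in smoke libraries 2, 10 and 12, high in the range without leaving it. The log2 fold change was 0.41 (SE 0.17), and 0.25 (SE 0.16) without the 3. Mal, on chromosome 2 (127633226 to 127656695, minus strand), encodes a proteolipid of membrane rafts that takes part in sorting membrane proteins to myelin. It ran from 1.5 to 4.72 CPM in air (median 4.16) and from 3.09 to 12.8 in smoke (median 5.10). Mal had 8 of 13 smoke libraries above the air range, among them libraries 2 and 10 at 12.8 and 9.89 CPM but not library 12 at 4.51. Its log2 fold change of 0.76 (SE 0.22) was 0.54 (SE 0.21) without the 3 libraries.

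Mag, on chromosome 7 (30899176 to 30914873, minus strand), encodes myelin-associated glycoprotein, an adhesion protein of the inner Schwann cell membrane that faces the axon. It ran from 3.15 to 11.1 CPM in air (median 6.605) and from 3.75 to 13.2 in smoke (median 6.22). For Mag, smoke libraries 2, 10 and 12 held 6.06, 6.22 and 5.80 CPM and ranked 14th, 13th and 16th of the 24 libraries. Mag was the 1 gene of the 8 whose smoke median was below its air median. Its log2 fold change was 0.07 (SE 0.20), and 0.13 (SE 0.22) without the 3 libraries.

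All 8 genes passed the expression filter, and in each the smoke and air ranges overlapped. All smoke libraries lay above all air libraries for 0.00984% of the genes tested and below them for 0.0197%. At an adjusted p under 0.05 in edgeR's quasi-likelihood test, 5 of the 8 (Pmp22, Prx, Ncmap, Drp2 and Gldn) were higher in smoke, beside 0.728% of all genes tested. Nothing is read from that count, since the genes were picked with this comparison known. Without smoke libraries 2, 10 and 12, 0 of the 7 genes still tested passed, beside 1.44% of all genes (0.413% higher and 1.02% lower), and 4 had an unadjusted p under 0.05 in the same edgeR test, beside 13.7% of all genes. With each library left out in turn, from 2 to 6 of the 8 passed, beside 0.459% to 1.01% of all genes higher in smoke. With each replicate number as a block, which leaves out smoke libraries 12 and 13 and tests 7 of the 8, 0 passed in edgeR, beside 1.37% of all genes, and 6 had an unadjusted p under 0.05, beside 15.6%. On all libraries DESeq2 called 6 of the 8 higher, beside 1.24% of all genes, and limma voom 1, beside 0.581%. The median log2 fold change of the 8 was 1.01, against 0.0066 for all genes tested. Over the 7 genes other than Gldn it was 0.88 with all libraries and 0.49 without the 3.

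**Figure D2:**
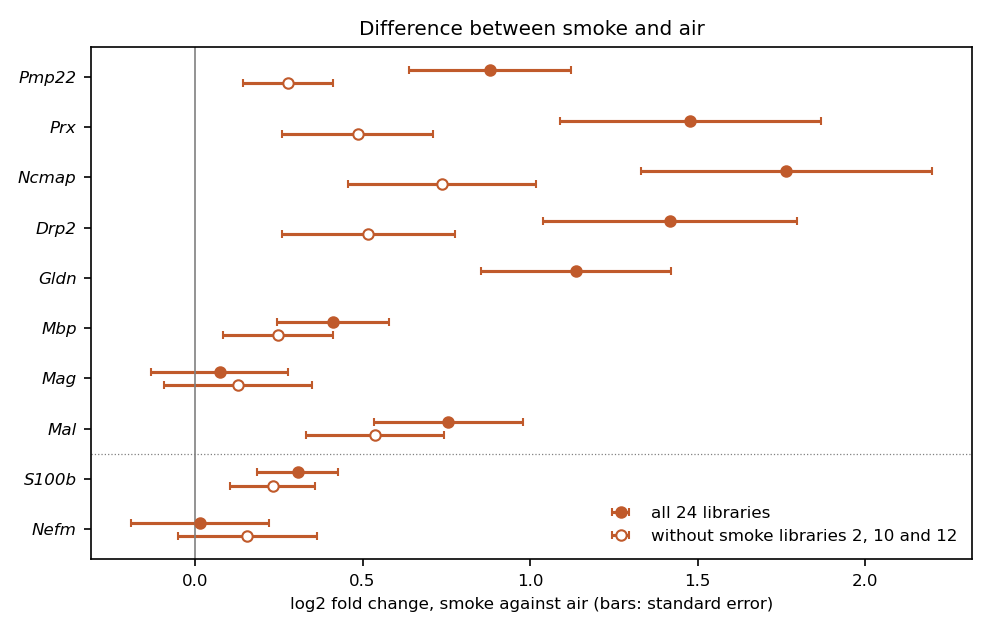
Log2 fold change of smoke against air with its standard error, for the 8 genes and, below the dotted line, the Schwann cell gene S100b and the axon gene Nefm. Filled points use all 24 libraries and open points leave out smoke libraries 2, 10 and 12; Prx goes from 1.48 to 0.49 while Mag stays near 0 (0.07 and 0.13).

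The genes also differed in their spread within groups. The coefficient of variation over air libraries was 18.7% for Pmp22, 35.6% for Prx, 43.6% for Ncmap and 33.4% for Drp2. Over smoke libraries it was 69.3%, 106%, 114% and 94.7%. For Gldn it was 43.6% in air and 60.9% in smoke, and for Mal 32.6% and 45.8%. Mbp and Mag showed the opposite order, at 43.6% and 40.9% in air and 32.0% and 36.3% in smoke. For Mbp this order rests on air library 6 at 104 CPM, since the next highest air library held 51.9 CPM. Without smoke libraries 2, 10 and 12 the coefficient was 33.4% for Pmp22, 39.4% for Prx, 62.5% for Ncmap and 61.8% for Drp2, each above its air value, but 25.1% for Gldn and 31.7% for Mal, both below theirs. Ranked by their residual SD within groups on the log2 scale, Ncmap, Drp2 and Prx stood at percentiles 99.9, 99.8 and 99.8 of the genes tested. Pmp22 stood at 98.5, Gldn at 97.7, Mag at 91.7, Mal at 90.9 and Mbp at 86.3. Counting noise is larger for genes with fewer reads, and neither measure was adjusted for it. Over air, Pmp22 had 1264 reads in all and Ncmap 95.

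The genes stood at different heights above the air median in the 3 smoke libraries. Library 2 was 13.5-fold above it for Ncmap, 12.3-fold for Prx, 9.85-fold for Drp2, 5.75-fold for Gldn and 4.37-fold for Pmp22. Library 10 was between 3.96-fold (Gldn) and 8.27-fold (Ncmap) above it for the same 5 genes, and library 12 between 3.56-fold (Pmp22) and 8.04-fold (Drp2). For Mbp the 3 libraries were 2.28-, 1.75- and 1.84-fold above the air median, and for Mag they were at 0.918, 0.942 and 0.879 of it. Of all genes tested, 105 (1.03%) had these as their 3 highest smoke libraries.

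Other nerve genes stood at various heights in the same 3 libraries. Nefm, a neurofilament subunit of axons, was at 0.918, 0.947 and 0.705 of its air median in libraries 2, 10 and 12. S100b, which encodes a calcium-binding protein found in Schwann cells whether or not they make myelin, was 1.65-, 1.49- and 1.45-fold above its air median there. Gjb1, the gap junction protein connexin 32 of Schwann cells, was 2.83-, 2.20- and 2.17-fold above it, and Ndrg1, another Schwann cell gene, 3.5-, 2.61- and 2.25-fold. At least 3 smoke libraries above the air range were found for 17.5% of all genes tested, and for 6 of the 8 myelin genes (Mbp and Mag being the exceptions), a count from which nothing is read. Nefm overlaps Nefl on the other strand, so their reads could be shared.

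**Figure D3:**
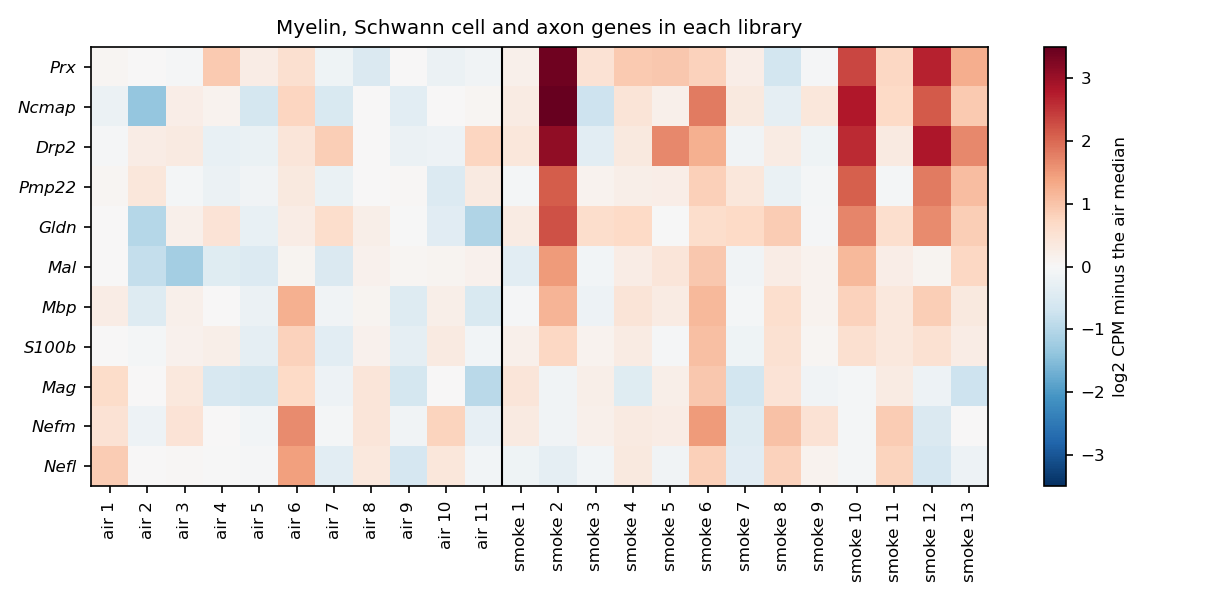
Log2 CPM minus the air median for the 8 genes, S100b, Nefm and Nefl (rows) in each of the 24 libraries (columns), red above and blue below. Smoke libraries 2, 10 and 12 are dark red for Prx, Ncmap, Drp2, Pmp22 and Gldn and pale for Mag and Nefm, while air library 6 and smoke library 6 are red in the lower rows.

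Marker genes of other cells were summed in each library beside these values. The 6 Schwann cell markers summed here (Sox10, S100b, Gjb1, Cdh19, Scn7a and Ngfr) came to 51.7 to 111 CPM in air, 58.1 to 130 in the other 10 smoke libraries, and 119, 103 and 98.7 in libraries 2, 10 and 12. Of these 6 markers 3 passed the expression filter, and S100b alone held 90.6, 81.6 and 79.6 CPM in libraries 2, 10 and 12. In the same 3 libraries the adipocyte sum was 2615, 2135 and 1741 CPM against 1179 to 2718 in air and 1432 to 1901 in the other smoke libraries. The lymphocyte sum was 54.9, 59.3 and 37.4 CPM against 21.1 to 48.8 and 29.96 to 41.8. The macrophage sum was 67.4 CPM in library 10, above 32.1 to 58.4 in air. Only 1 of 5 lymphocyte markers and 3 of 5 macrophage markers passed the expression filter, so these sums rest on few genes. The sums for fast and slow fibres, fibroblasts, endothelium, red blood cells, smooth muscle and tendon in the 3 libraries lay inside the range of the other 21. Every marker of the 11 lists had reads in some library. The part of these cells in the myelin gene values was not tested.

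Within air the correlations among the 8 genes had a median near 0. Over the 11 air libraries Prx, Ncmap, Drp2, Gldn and Mal had 134, 95, 166, 76 and 136 reads in all. Their correlations in air are thus uncertain by counting alone. Of the 28 pairs 19 were positive, and 2 had an unadjusted permutation p under 0.05 by Pearson's r. Pearson's r of log2 CPM over 11 libraries ran from -0.46 to 0.75 across the 28 pairs, with a median of 0.06. The correlation between members and all other tested genes had a median of 0.01 in air, with the 5th and 95th percentiles at -0.55 and 0.56. Mbp and Mag were the 1 pair to pass in air (r = 0.75, rho = 0.88, permutation p = 0.00333, adjusted p = 0.0124 over 56 relations, rho adjusted p = 0.0127), and r was 0.65 without the 2 libraries farthest from the median of Mbp. Among Pmp22, Prx, Ncmap, Drp2 and Gldn, the 10 pairs had a median r of 0.06 in air, from -0.46 to 0.40.

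Within smoke, pairwise r over 13 libraries had a median of 0.74, and 20 of 28 pairs passed by Pearson's r (9 by Spearman's rho) in permutation tests adjusted over 56 relations. The correlation of members with all other tested genes had a median of -0.0050 in smoke (5th and 95th percentiles -0.54 and 0.57) and of 0.0012 in the 10 smoke libraries without 2, 10 and 12 (-0.56 and 0.57). These values rest on libraries 2, 10 and 12, which form a cluster of their own. The genes were chosen with their difference from air known, and the median of that difference was smaller without these 3 libraries. Ncmap and Gldn also passed the expression filter mainly through smoke. Nothing is therefore read from the number of pairs that passed in smoke. Over the other 10 smoke libraries the median r was 0.42, from -0.29 to 0.84, with 24 of 28 pairs positive and 0 passing the adjusted permutation test by either coefficient (8 pairs by r and 5 by rho at an unadjusted p under 0.05). The same 10 pairs among Pmp22, Prx, Ncmap, Drp2 and Gldn had a median r of 0.51 there, from -0.03 to 0.70. Pmp22 and Prx had r = 0.70 (rho = 0.81, permutation p = 0.0244, adjusted p = 0.234), and r was 0.60 without the 2 libraries farthest from the median. Mbp and Mal had r = 0.84 (rho = 0.76, permutation p = 0.00210, adjusted p = 0.0932), and 0.69 without the 2 farthest. Drp2 and Mal went from 0.74 to 0.73 in the same way. The other 5 of the 8 pairs fell further without the 2 farthest libraries: Pmp22 with Ncmap from 0.64 to 0.11, with Drp2 from 0.65 to 0.12 and with Mal from 0.68 to -0.03, and Ncmap with Mbp from 0.69 to -0.18 and with Mal from 0.69 to 0.31. Those 5 correlations rest on 2 libraries. Mag stood aside: its r with the other 7 genes ran from -0.27 to 0.24 over all smoke libraries and from -0.29 to 0.47 over the 10. Whether correlations differ between air and smoke was not tested.

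**Figure D4:**
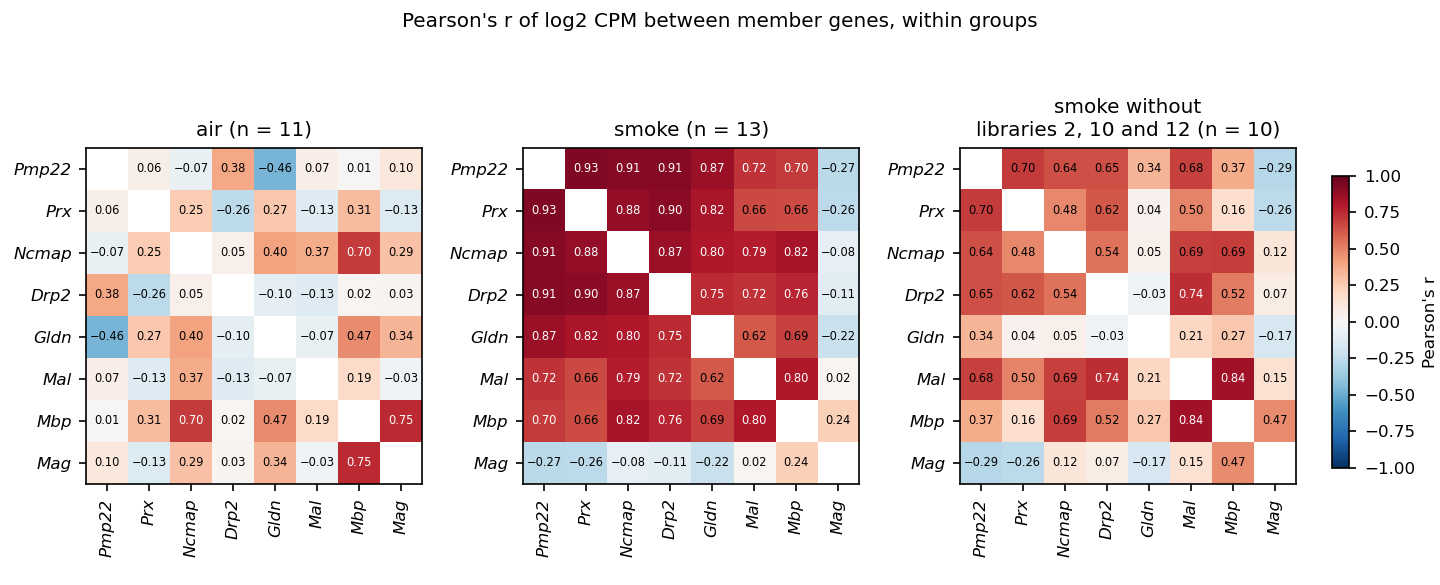
Pearson's r of log2 CPM for each pair of the 8 genes, in air (n = 11), smoke (n = 13) and smoke without libraries 2, 10 and 12 (n = 10), red positive and blue negative. The smoke panel is red except along the Mag row, the air panel is mostly pale with Mbp and Mag at 0.75, and the last panel lies between them.

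Each of the 8 was also set beside the axon gene Nefm, in air and in the 10 smoke libraries. Nefm was chosen after the values had been seen, as one of the genes nearest to Mbp and Mag, so these correlations are a description and carry no test. In air, Mbp and Nefm had r = 0.96 (rho = 0.98), and r was 0.88 without the 2 libraries farthest from the median of Mbp. Mag and Nefm had r = 0.77 in air (rho = 0.83, 0.70 without the 2 farthest). In the 10 smoke libraries r was 0.82 for Mag and Nefm (rho = 0.82, 0.71 without the 2 farthest). It was 0.80 there for Mbp and Nefm (rho = 0.70, 0.65 without the 2 farthest).

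Of the other 6 genes, Ncmap in air had the highest r with Nefm (r = 0.68, rho = 0.53), and it was at 0.39 without the 2 farthest libraries. Pmp22, Prx and Drp2 had r = 0.02, 0.15 and -0.02 with Nefm in air and -0.11, -0.16 and 0.17 in the 10 smoke libraries. Gldn and Mal had r = 0.32 and 0.27 with Nefm in air. In the 10 smoke libraries Ncmap, Gldn and Mal had r = 0.41, 0.04 and 0.51 with it. The ratio of Mbp to Nefm CPM was 1.06 to 1.59 in air, 1.1 to 2.12 in the other 10 smoke libraries, and 3.95, 2.93 and 4.15 in smoke libraries 2, 10 and 12, above all others. The ratio of Mag to Nefm was 0.126 to 0.271 in air (median 0.165) and 0.135 to 0.262 in the other 10. It was 0.241, 0.239 and 0.300 in the 3 libraries, so that library 12 was the highest of the 24 and libraries 2 and 10 lay high within the air range. Whether these relations differ between genes was not tested.

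**Figure D5:**
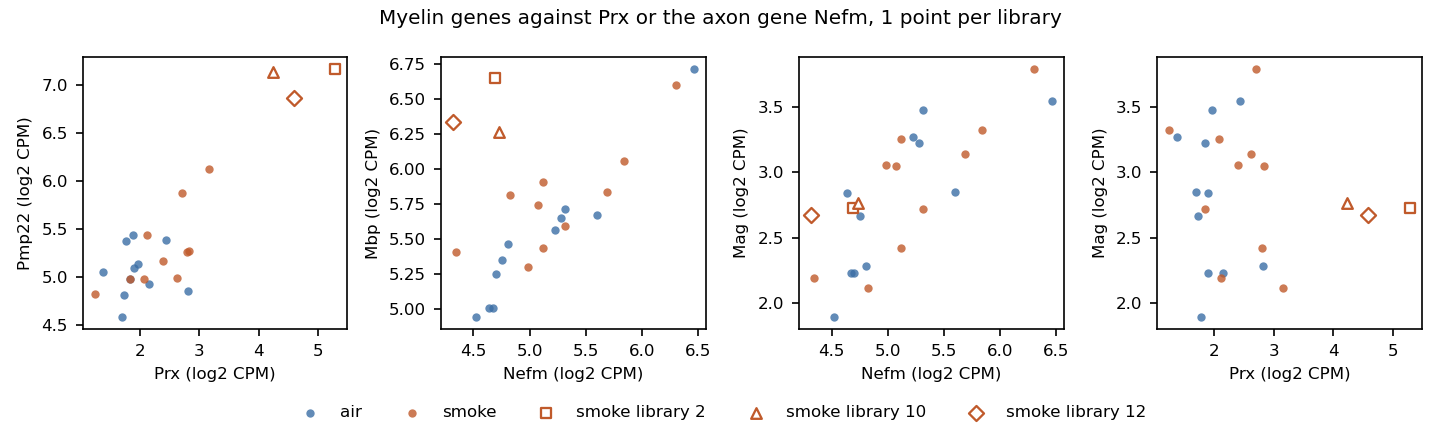
Log2 CPM of Pmp22 against Prx, Mbp against Nefm, Mag against Nefm and Mag against Prx, with 1 point per library. Smoke libraries 2, 10 and 12 (open symbols) are at the top right for Pmp22 and Prx, above the other libraries for Mbp at their Nefm level, and among the others for Mag and Nefm.

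The genes most like the 8 were ranked by the correlation, over all 24 libraries, between their deviations from the group mean and the mean standardised deviation of the 8. The first 12 reported were Aatk (r = 0.92), Scd2 (0.91), Gjb1 (0.86), Apod (0.86), Plekha4 (0.83), Pea15a (0.80), Ptprf (0.79), Tuba1b (0.79), Cnp (0.78), Ndrg1 (0.77), Gpm6b (0.77) and Sema3b (0.77). Scd2 is a fatty acid desaturase, Gjb1 the gap junction protein connexin 32 and Apod a lipid-binding apolipoprotein. Without smoke libraries 2, 10 and 12, over 21 libraries, 5 of these 12 were among the first 12 (Aatk at 0.83, Scd2 at 0.82, Gpm6b at 0.79, Gjb1 at 0.73 and Pea15a at 0.72). The other 7 were not, and in their place stood Sdc3 (0.82), Tubb2a (0.80), Tubb2b (0.78), Tuba1a (0.78), Ckb (0.77), Sv2a (0.73) and Slc22a17 (0.71). These correlations share library depth and scaling and carry no test.

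Gene by gene, Apod was nearest to Pmp22 (0.91) and to Drp2 (0.87) and was among the 3 nearest of Prx (0.81). Pmp22 was among the 3 nearest of Prx (0.86), Ncmap (0.81) and Drp2 (0.87), and Drp2 (0.87) and Sema3b (0.86) were the next neighbours of Pmp22. Prx also had Sema3b (0.81), Ncmap had Gjb1 (0.82) and Prx (0.81), and Drp2 had Plekha4 (0.86). Gldn had Slc44a1 (0.74), Mnt (0.73) and Aatk (0.70), none of them among the 8. Mbp had S100b (0.87), Aatk (0.86) and Dbn1 (0.86), and over the 21 libraries Aldoc (0.92), Nefm (0.89) and Slc22a17 (0.89). Mag had Snap25 (0.86), Snhg11 (0.80) and Cplx1 (0.79), of which Snap25 and Cplx1 serve transmitter release in neurons, and the same 3 genes led over the 21 libraries. Mal had Gm5714 (0.78), Pde6a (0.72) and Adar (0.71).

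Over the 21 libraries the nearest genes of most of the 8 were others. Pmp22 had Gsdma (0.75), Elovl1 (0.75) and Emcn (0.74), and Prx had Cdk16 (0.69), Dynll1 (0.69) and Spred1 (0.68). Ncmap had Hepacam (0.81), Gm15614 (0.76) and Tubb2b (0.75), and Drp2 had Pea15a (0.78), Igfbp6 (0.76) and Telo2 (0.72). Gldn had Cars (0.79), Camk2n1 (0.78) and Serpinh1 (0.76), and Mal had Adar (0.73), Kcnc1 (0.71) and Ankrd46 (0.70). Apod, Sema3b and the other myelin genes, which led for Pmp22, Prx and Drp2 over 24 libraries, were in none of those 3 genes' lists without smoke libraries 2, 10 and 12.

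Other nerve genes were read from 10 lists of 105 genes in all, of which 62 were tested. Ndrg1 was called higher in smoke by edgeR and 0 were called lower, and 36 of the 62 had a positive log2 fold change (median 0.02), beside 51.6% of all genes tested. Of all genes, 1.92% were called and 15.5% had an unadjusted p under 0.05. DESeq2 also called Ndrg1 alone and limma voom called 0, and at an unadjusted p under 0.05 edgeR gave 8 higher and 2 lower of the 62. In the list of compact myelin and myelin lipid genes, 0 of 5 passed in edgeR (2 at an unadjusted p under 0.05), 4 were positive and the median was 0.32, and it was 0.11 without the 3 libraries. There Pllp, a proteolipid of myelin membranes, was at 0.64 and Cnp, a myelin enzyme that binds the cytoskeleton, at 0.32 (edgeR adjusted p = 0.243 and 0.279), and without the 3 libraries these were 0.14 and 0.11. In the list of Charcot-Marie-Tooth disease genes, the inherited neuropathies to which Pmp22 and Prx also belong, Ndrg1 passed of 11 tested and the median was -0.04. Ndrg1, a Schwann cell gene that hypoxia also induces, was 0.71 higher in smoke (SE 0.17, edgeR adjusted p = 0.0229). It did not pass without the 3 libraries (0.37, edgeR adjusted p = 0.115), with voom (0.59, limma adjusted p = 0.0634) or with the replicate block (0.54, edgeR adjusted p = 0.0946).

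Among the membrane and cytoskeletal partners of the 8 genes, 0 passed in edgeR's test. At an unadjusted p under 0.05 there were 4 dystroglycan partners (3 higher, 1 lower) and 0 in the next 2 lists. Of 8 tested dystroglycan partners of periaxin and DRP2, 5 were positive (median 0.16), with Ezr at -0.60 and Sgce at 0.46 (edgeR adjusted p = 0.100 and 0.108). Of the non-compact myelin, gap junction and adhesion genes 4 were tested and 4 were positive (median 0.13), with Gjb1 at 0.42 and Tjp1 at 0.20 (edgeR adjusted p = 0.337 and 0.705). Without smoke libraries 2, 10 and 12, Gjb1 was at 0.13 and Tjp1 at 0.17, and the median was 0.11. Of the node and paranode genes 4 were tested and 4 were positive (median 0.17), with Scn8a at 0.29 and Nfasc at 0.23 (edgeR adjusted p = 0.573 and 0.700). Without the 3 libraries the median of these genes was 0.06, with Scn8a at 0.35 and Nfasc at 0.11, and the median of the dystroglycan partners was 0.10.

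Regulators, Schwann cell genes outside myelin, axons and sheath cells gave medians near 0 and 0 calls by edgeR on all libraries. At an unadjusted p under 0.05 these were Jun (lower), Pou3f1 and S100b (higher). Of 7 tested genes that control Schwann cell myelination 2 were positive (median -0.06), with Jun, a brake on myelination, at -0.37 and Pou3f1, a promyelin transcription factor, at 0.61 (edgeR adjusted p = 0.0784 and 0.183). Jun averaged 113 CPM in air, and which cells of the muscle its reads came from was not tested. Jun was called lower at -0.41 without air library 11 and without smoke library 4 (edgeR adjusted p = 0.0388 and 0.0437). Of 4 Schwann cell genes not specific to myelin 2 were positive (median 0.0023), with S100b at 0.31 and Matn2 at -0.02 (edgeR adjusted p = 0.195 and 0.977). With the replicate block edgeR called S100b (0.29, adjusted p = 0.0433), and without smoke libraries 2, 10 and 12 it was at 0.23 (edgeR adjusted p = 0.441) and the median of the list at -0.04. Of 7 axon genes 5 were positive (median 0.02), with Stmn2 at -0.26 and Snap25 at 0.32 (edgeR adjusted p = 0.499 and 0.557), and the median was 0.12 without the 3 libraries. Of 4 perineurial and endoneurial genes 2 were positive (median 0.08), with Osr2 at 0.20 and Sox9 at 0.17 (edgeR adjusted p = 0.727 and 0.750). Of 11 cholesterol synthesis genes, which supply the sterol of myelin, 4 were positive (median -0.04), with Mvd at -0.27 and Srebf2 at -0.23 (edgeR adjusted p = 0.406 and 0.590).

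A further 43 related genes were under the expression filter, and Pmp2 had 0 counts in all 24 libraries. Permutation tests of the other 42 gave 0 at an adjusted p under 0.05 (lowest 0.605) and 1 at an unadjusted p under 0.05. That 1 was Sox10, the Schwann cell transcription factor, with 72 counts in air and 122 in smoke (permutation p = 0.0178). Cldn19, a claudin of Schwann cell tight junctions, had a mean of 1.00 CPM in air and 2.88 in smoke (permutation p = 0.0525). Its counts summed to 40 in air and 119 in smoke, and 73 of the 119 were in smoke libraries 2, 10 and 12.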

How the data were processed

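Plantaris RNA was read near its 3′ ends in 11 air and 13 smoke samples. The table the authors deposited holds unnormalised read counts, with 1 row for each Ensembl gene. The submitters' processing notes name STAR, DESeq2 and mm9 without versions or roles. The counter, annotation and use of strand or molecular identifiers were not given in the sources used here. Prx, Ncmap, Gldn and Mbp overlap a gene on the other strand, so that their counts could include its reads. Per the file headers all libraries ran on lane 6, with sheet numbers 229 to 241 for smoke and 242 to 252 for air, so sheet position and group cannot be told apart.

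Symbols and coordinates (1-based) came from GENCODE on GRCm38, which held 47224 of 47643 IDs (99.1%). No coordinate was converted between builds. Promoters came from RefSeq.

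Counts were tested with edgeR 4.0.16 in R 4.3.3 (TMM scaling, filterByExpr with a minimum count of 10, quasi-likelihood F-test, no covariates, Benjamini-Hochberg adjustment, threshold 0.05). CPM are counts scaled to a common TMM-adjusted library total, and log2 CPM used a prior count of 2. Correlations used two-sided permutation tests with 100000 resamples. Alternatives were DESeq2 1.42.0, voom in limma 3.58.1, scaling by RLE or the upper quartile, no filter or a CPM filter, the 10 most abundant genes removed, other prior counts, thinning, a replicate block and each library left out. Leaving out smoke libraries 2, 10 and 12 was chosen after seeing the data. The scripts' models were tested on simulated data. No pair of libraries agreed within sampling noise (chi-square per gene 2.52 to 18.5 over 133 pairs within groups).

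Named genes were all 8 members, in each list every called gene or else the 2 of smallest p, the 12 genes most like the members' mean and the 3 most like each member. Some genes these rules name are not reported here and were left out of lists, marker sums and rankings, but not of the fit across all genes. Members and lists were chosen with earlier results of these data known.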

Additional observations from a re-analysis of the deposited data

How the results depend on the processing

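The count of genes called was 323 by DESeq2 (121 higher, 202 lower), against 195. Without smoke libraries 2, 10 and 12 it was 42 higher, the related genes called fell from 1 to 0 (0 higher), pairs correlated in smoke and in air fell to 0 and 0, and the median r in smoke was 0.423. The air libraries are the same there. The air pair was lost by Pearson's r because p-values were adjusted over another set of smoke pairs, and it still passed by Spearman's rho (permutation, adjusted p = 0.0381). Limma voom called 0 related genes (0 higher). Ndrg1 lost its call with voom (0.59, adjusted p = 0.0634), the block (0.54, 0.0946) and without the 3 libraries (0.37, 0.115). By Spearman's rho, 9 smoke pairs passed and the median was 0.588. In air, 2 pairs passed with a prior count of 5 and 2 after thinning to the smallest library. Other alternatives kept each of these counts within 1.5 times. Voom gave smaller log2 fold changes for Prx (0.91 against 1.48), Ncmap (1.16 against 1.76) and Drp2 (0.85 against 1.42), as did the block for Pmp22 (0.52 against 0.88) and Drp2 (0.87), while Mag was at 0.16 under the block against 0.07.

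With 1 library left out in turn, 141 to 254 genes were called (47 to 103 higher, 92 to 163 lower; 47 without air library 3), and 1 to 2 related genes (1 to 1 higher, 0 to 1 lower). The 1 lower was Ezr without air library 10 and Jun without air library 11 or smoke library 4. The members' median difference was 0.83 to 1.08. Correlated pairs were 1 to 2 in air and 9 to 21 in smoke (9 without smoke library 2), and the median r was -0.090 (without air library 6) to 0.23 in air and 0.62 to 0.78 in smoke. Mag turned sign without air library 11 (-0.00064) and smoke library 6 (-0.031), over a range of -0.031 to 0.16.

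Replicate numbers name different samples, and same-numbered libraries did not deviate together (mean r -0.0059 over 11 numbers, 0.0011 over 132 other pairs). With the replicate block on 22 libraries, 138 genes were called (53 higher, 85 lower), 110 of them also in the unblocked fit, and the members' median difference was 0.71. The block called S100b in place of Ndrg1.

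Ncmap and Gldn rest on as few as 2 reads in a library, so a low value there is uncertain by counting alone.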

Other observations

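Air library 6 and smoke library 6 were the highest of the 24 for Nefm, at 87.4 and 78.2 CPM. Air library 6 was also highest for Mbp (104 CPM), and smoke library 6 for Mag (13.2 CPM). Air library 6 was the highest air library for Ncmap (4.84 CPM) and S100b (96.4 CPM) too. Smoke library 6 was the highest of the 24 for S100b (115 CPM) and held 10.9 CPM of Ncmap. Pmp22 in air library 6 was 41.1 CPM, inside the range of the other air libraries. These libraries were picked out after their values were seen.

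Plekha4, a gene on none of the lists that ranked high among the genes most like the 8, averaged 3.27 ± 1.05 CPM in air (SD, n = 11) and 8.17 ± 6.92 CPM in smoke (SD, n = 13). It was 1.26 higher in smoke on the log2 scale (SE 0.33, edgeR adjusted p = 0.0356), with 6 of 13 smoke libraries above the highest air library. Without smoke libraries 2, 10 and 12 it was 0.55 higher (SE 0.23, edgeR adjusted p = 0.267), with 3 of 10 above. Plekha4 was picked for its likeness to the 8 genes over all libraries, so its p-values are a description only.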
